A study of Mus musculus with 18 samples.

Results

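Poly-A RNA of mouse CD8+ T cells was examined for 8 genes that mark the naive and memory states of these cells: the transcription factor genes Tcf7, Lef1, Foxo1 and Klf2, and the surface receptor genes Il7r, S1pr1, Ccr7 and Slamf6. The genes were taken by name from the deposited count table, and 8 of 8 were found among its 14695 genes. The cells were primary cells of spleen and lymph node, targeted with CRISPR/Cas9 at 1 of 3 loci, and then kept in culture for 24 hours, untreated or with halofuginone, which blocks prolyl-tRNA synthetase and so leaves the tRNA of proline uncharged. The 6 groups of 3 libraries were untreated and halofuginone-treated cells of each of 3 genotypes, labelled Rosa26 (a neutral site that served as the control), ATF4 KO and CEBPG KO, written below as Atf4 knockout and Cebpg knockout. All 6 groups, controls included, went through targeting and culture. The age, sex and strain of the mice, the activation of the cells, the dose of the drug and the share of cells that carried an edit are details that the sources used here do not give. The labels are silent on whether replicate libraries are different mice or different cultures, so every p-value measures only the spread between these samples.

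Naive CD8 T cells recirculate through lymph nodes and live on interleukin 7, and memory cells keep much of the same program. FOXO1, which AKT holds in the cytoplasm when growth signals are strong, binds and activates Il7r, Klf2 and Ccr7 in T cells, and KLF2 in turn activates S1pr1. TCF1 (the product of Tcf7) and LEF1 are HMG-box factors that share DNA sites and keep T cells able to self-renew. ATF4 is the main transcription factor of the amino acid response that uncharged tRNA sets off, and C/EBPγ, the product of Cebpg, pairs with it on DNA.

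The sequences around transcription start sites are shown for Tcf7 and for Klf2, whose FOXO1 dependence is well known. Tcf7 was the only gene of the 8 whose response to the drug passed a test against Rosa26 in the fit of 18 libraries. Others passed under other settings, given below. They come from RefSeq on the build GRCm38.p6, run from 250 bases before to 50 bases after an annotated start, and read 5′ to 3′ on the strand of the gene. Tcf7 has 2 such windows, the first at chr11:52282965-52283264 and the second at chr11:52282546-52282845, both on the minus strand, and Klf2 has 1, at chr8:72318812-72319111 on the plus strand. Capitals mark matches to 4 words that were searched on both strands, none overlapping another: GTAAACA (a FOXO word), ATCAAAG (a TCF and LEF word), CCACACCC (a KLF word, GGGTGTGG on the other strand) and TGATGNAA (a word of the composite C/EBP and ATF element).
Tcf7 window 1: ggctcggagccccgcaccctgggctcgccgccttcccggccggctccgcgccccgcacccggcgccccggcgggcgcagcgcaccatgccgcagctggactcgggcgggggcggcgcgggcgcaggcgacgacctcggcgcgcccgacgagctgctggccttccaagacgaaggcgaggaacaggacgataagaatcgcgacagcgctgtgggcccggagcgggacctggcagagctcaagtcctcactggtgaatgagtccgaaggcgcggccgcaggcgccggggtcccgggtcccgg
Tcf7 window 2: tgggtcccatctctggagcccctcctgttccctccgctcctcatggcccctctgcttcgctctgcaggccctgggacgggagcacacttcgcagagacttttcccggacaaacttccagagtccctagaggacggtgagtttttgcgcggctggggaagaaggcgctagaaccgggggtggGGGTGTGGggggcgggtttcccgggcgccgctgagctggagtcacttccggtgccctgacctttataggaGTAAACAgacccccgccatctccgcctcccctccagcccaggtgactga
Klf2: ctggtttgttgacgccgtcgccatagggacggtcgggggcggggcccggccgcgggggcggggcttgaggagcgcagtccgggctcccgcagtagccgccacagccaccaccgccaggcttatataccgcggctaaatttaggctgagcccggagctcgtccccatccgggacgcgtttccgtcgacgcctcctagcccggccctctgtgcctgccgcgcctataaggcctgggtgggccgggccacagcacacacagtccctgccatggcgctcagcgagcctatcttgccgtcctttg
Of 10 windows, which belonged to 6 of the 8 genes, only the second window of Tcf7 held any of these words, a FOXO word at position 252 and a KLF word on the other strand at position 182, counted from 1 at the 5′ end. S1pr1 and Ccr7 have no entry. Over 32817 windows of the same kind, 3.65% held the FOXO word, 3.73% the TCF and LEF word, 3.56% the KLF word and 3.97% the composite word. The words were chosen with the expression results known, and a match describes letters only.

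Libraries held 14190361 to 20281602 counts, and the lowest count of any of the 8 genes in any library was 258, for Slamf6. Without the drug the targeted genes do not check the labels, since both mRNAs were present in every group. Untreated Atf4 stood at 268 ± 12.5 CPM (counts in proportion to the scaled library size, with SD, n = 3) in Rosa26 and 285 ± 14.4 CPM in Atf4 knockout cells. Untreated Cebpg stood at 53.7 ± 1.28 CPM in Rosa26 and 56.4 ± 2.33 CPM in Cebpg knockout cells. With the drug Cebpg was at 173 ± 8.67 CPM in Rosa26, 130.5 ± 7.29 CPM in Atf4 knockout and 101 ± 6.37 CPM in Cebpg knockout cells, with no libraries overlapping. Treated Atf4 was at 379 ± 42.8 CPM in Rosa26 and 315 ± 57.3 CPM in Atf4 knockout cells, with libraries overlapping. In treated Cebpg knockout cells Atf4 was at 315 ± 26.6 CPM. Markers of CD8 T cells were measured for 10 of 10 genes, and their sum was 4413 to 4503 CPM in untreated and 3892 to 4614 CPM in treated Rosa26 libraries. It was lower with the drug in both knockouts, at 4388 to 4566 CPM without and 3387 to 4240 CPM with it in Atf4 knockout libraries and 4416 to 4463 CPM without and 3550.1 to 3837 CPM with it in Cebpg knockout libraries. With the drug 4 of the 10 markers fell and 1 rose in Rosa26 cells, beside 24.1% of all genes lower and 23.6% higher. In Atf4 knockout cells 4 fell, beside 26.5% of all genes, and in Cebpg knockout cells 5 fell, beside 28.0%. Of 5 CD4 T cell markers 3 were measured (Zbtb7b, Foxp3 and Ikzf2, with Cd4 and Cd40lg not among them). The sum of the 3 rose with the drug as most of the 8 genes did: it was 25.1 to 27.8 CPM in untreated and 77.6 to 87.2 CPM in treated Rosa26 libraries, 35.3 to 39.7 and 93.1 to 120.3 CPM in Atf4 knockout libraries, and 31.0 to 36.1 and 90.9 to 105.8 CPM in Cebpg knockout libraries. Taken singly the 3 markers went both ways between genotypes. In untreated Atf4 knockout cells 2 were higher and 1 lower than in Rosa26 cells, beside 11.7% and 14.3% of all genes. B cell markers (4 of 7 measured, Ms4a1 and Pax5 not among them) summed to at most 19.6 CPM, and myeloid markers (3 of 10 measured, Lyz2 and Itgam not among them) to at most 50.4 CPM. Eomes, the 1 NK cell marker of 5 that was measured and a gene that CD8 T cells also use, stood at 82.6 to 86.1 CPM in untreated and 25.2 to 32.6 CPM in treated Rosa26 libraries, and 3 of 7 erythroid and platelet markers summed to at most 12.6 CPM. Mki67, a proliferation gene picked out after its values were seen, ran the other way, at 1366 ± 17.8 CPM without and 450.2 ± 26.7 CPM with the drug in Rosa26 cells. It was lower in both knockouts, at 979 ± 31.9 CPM without and 302 ± 12.6 CPM with the drug in Atf4 knockout cells. In Cebpg knockout cells Mki67 was at 1212 ± 77.8 CPM without and 355 ± 27.5 CPM with the drug. The part of these changes and genotype differences in the results below was not tested. In bulk RNA fewer cells of a type and less RNA per cell cannot be told apart.

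In each genotype 1 treated library stood apart by a low level of the nuclear RNA Malat1. It was Rosa26 replicate 2 with 672 CPM, against 2074 and 2607 CPM in the other 2 libraries, Atf4 knockout replicate 3 with 1158 CPM, against 2404 and 3415 CPM, and Cebpg knockout replicate 3 with 1960 CPM, against 3237 and 3580 CPM. In all 3 genotypes that library was the highest of the treated libraries for Tcf7, Klf2, S1pr1 and Ccr7, whereas for Lef1, Il7r and Slamf6 it was the highest in 1 genotype each and for Foxo1 in 2. The untreated Rosa26 libraries also held less Malat1 than any untreated knockout library, at 1016 ± 155 CPM in Rosa26, 2246 ± 314 CPM in Atf4 knockout and 2172 ± 169 CPM in Cebpg knockout cells. Whether this difference bears on the knockout comparisons was not tested. Calls that changed without the 3 libraries are given with and without them. Some fold changes moved while their calls held. In log2, the drug response of S1pr1 in Rosa26 cells went from 2.15 to 2.03 without them. That of Ccr7 went from 1.27 to 1.20 in Rosa26 and from 0.92 to 0.80 in Atf4 knockout cells. That of Slamf6 in Cebpg knockout cells went from 0.48 to 0.60. Foxo1 in treated Atf4 knockout against treated Rosa26 cells went from 0.36 to 0.46.

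Per length of exon, Tcf7 was the most abundant of the 8 mRNAs in untreated Rosa26 cells at 144 ± 4.57 RPKM (CPM per kilobase of exon; SD, n = 3), followed by Ccr7 at 67.0 ± 3.72 and Klf2 at 29.4 ± 3.01 RPKM. Foxo1, Lef1 and S1pr1 lay close together at 13.1 ± 0.149, 12.6 ± 0.736 and 12.0 ± 1.03 RPKM, and Il7r at 4.70 ± 0.398 and Slamf6 at 1.51 ± 0.0854 RPKM were the lowest. In treated Atf4 knockout cells the order among the first 4 was Tcf7 at 238 ± 26.2, Ccr7 at 225 ± 41.6, Klf2 at 150.2 ± 16.3 and S1pr1 at 116 ± 14.2 RPKM.

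**Figure D1:**
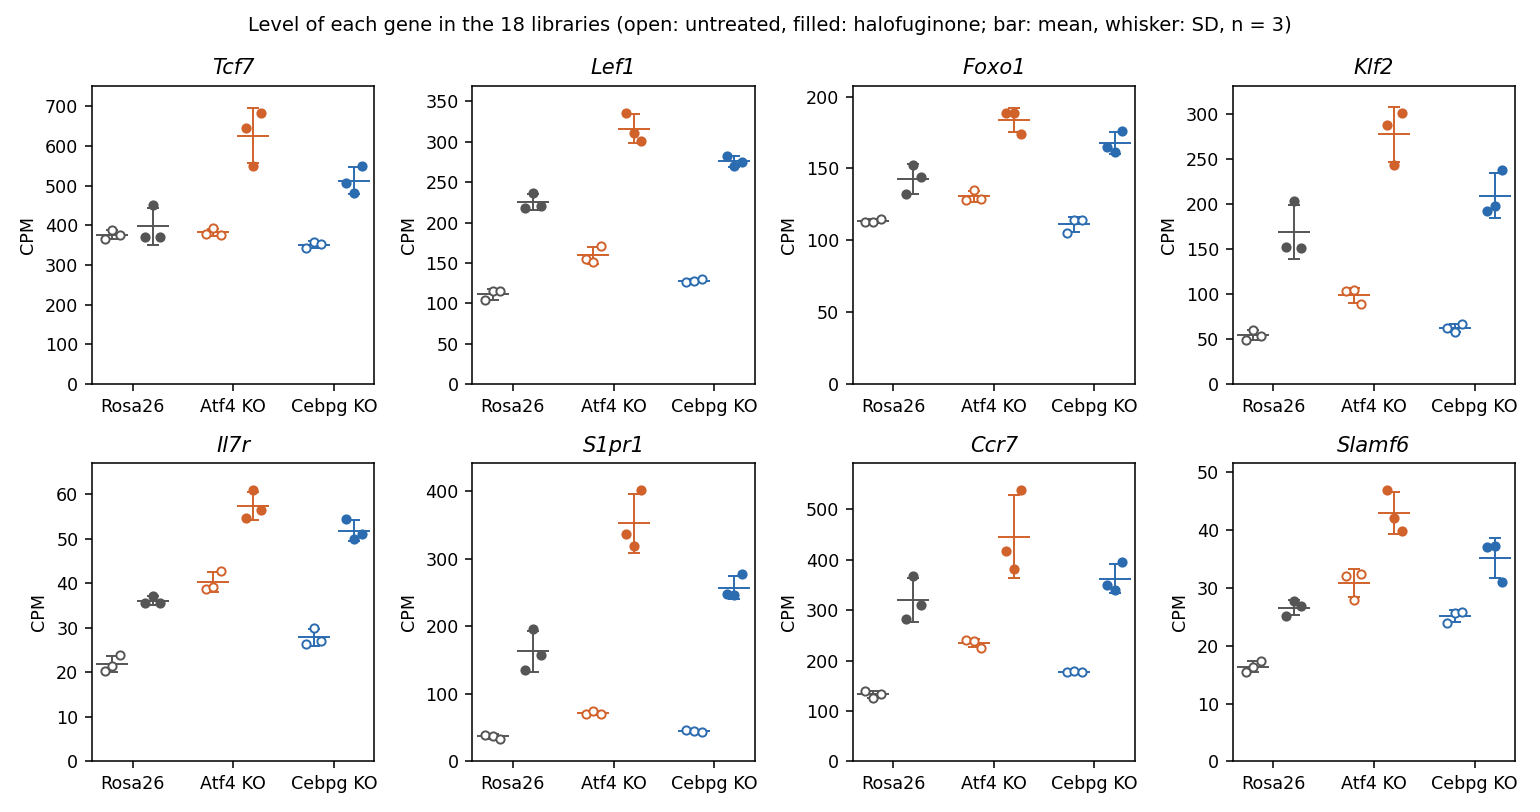
Level of each of the 8 genes in CPM (vertical axis, linear from 0) in the 18 libraries, grouped by genotype; open points are untreated libraries, filled points treated ones, bars the mean and whiskers the SD of 3 libraries. Treated Atf4 knockout cells had the highest mean for every gene, and the 3 untreated groups of Tcf7 lay between 342 and 393 CPM.

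Halofuginone raised 7 of the 8 genes in control cells. At the same threshold (adjusted p under 0.05) 23.6% of all genes were higher. The genes that rose in Rosa26 cells were S1pr1, the receptor that lets lymphocytes leave lymph nodes, Klf2, Ccr7, Lef1, Il7r, Slamf6 and Foxo1. Their fold changes from the fit were 4.43-fold to 1.26-fold. Tcf7 did not pass the test there. In Atf4 knockout and in Cebpg knockout cells, where 23.1% of all genes were higher in each, 8 of 8 rose. The median log2 fold change of the 8 genes was 0.87 in Rosa26, 0.82 in Atf4 knockout and 0.96 in Cebpg knockout cells, beside medians of 0.02, -0.04 and -0.03 over all genes.

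Among the transcription factors, Tcf7 levels were 365, 389 and 376 CPM in untreated and 371, 452 and 369.8 CPM in treated Rosa26 libraries (replicates 1 to 3). The groups overlapped, and only the second treated library, the one low in Malat1, lay above all untreated ones; the log2 fold change was 0.08 ± 0.082 (SE) with a 95% interval of -0.09 to 0.25 and an adjusted p of 0.472 by edgeR's quasi-likelihood test. It was 0.02 without the 3 libraries low in Malat1 (adjusted p = 0.818), and under upper-quartile scaling, which moved the median of all genes from 0.02 to 0.09, it was 0.14 and passed (adjusted p = 0.0489). In Atf4 knockout cells Tcf7 went from 378, 393 and 376 to 645, 549.8 and 684 CPM, and in Cebpg knockout cells from 342, 359 and 354 to 506, 482 and 549 CPM. Each treated library of a knockout lay above every untreated one, with log2 fold changes of 0.71 ± 0.083 (adjusted p = 4.96e-07) and 0.54 ± 0.083 (adjusted p = 1.44e-05).

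Lef1, whose product acts on many of the sites that TCF1 binds, behaved otherwise: it about doubled in every genotype. Its levels were 104, 115 and 115 CPM in untreated and 218, 236 and 220.3 CPM in treated Rosa26 libraries, 155, 152 and 171 CPM without and 336, 311 and 301 CPM with the drug in Atf4 knockout libraries, and 127, 127 and 129.8 CPM without and 283, 269.8 and 275 CPM with the drug in Cebpg knockout libraries. No treated library overlapped an untreated one of its genotype, and the log2 fold changes were 1.02 ± 0.061, 0.99 ± 0.061 and 1.11 ± 0.061. An antisense gene, Gm43352, shares 1208 exon bases with Lef1 in the GRCm38 annotation; its highest count was 87 against at least 1725 for Lef1, and the sources used here do not give the strand setting of the counting.

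Foxo1 had the smallest called change in Rosa26 cells. It stood at 113, 113 and 115 CPM without and 132, 153 and 144 CPM with the drug, a log2 fold change of 0.33 ± 0.060 (adjusted p = 0.000127). In Atf4 knockout cells the levels were 128, 135 and 129 CPM without and 189, 188 and 174 CPM with it. Cebpg knockout cells had 105, 114 and 114 CPM without and 165, 161 and 176 CPM with it. Treated and untreated libraries were apart in each genotype, with log2 fold changes of 0.49 ± 0.060 in Atf4 knockout and 0.59 ± 0.060 in Cebpg knockout cells. The antisense gene Gm20402 shares 674 exon bases with it and had at most 40 counts, against at least 1694 for Foxo1.

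Klf2, which restrains T cell activation and keeps homing receptors on, rose about 3-fold. Untreated Rosa26 libraries had 49.4, 60.3 and 53.0 CPM and treated ones 152, 204 and 151 CPM, with the library low in Malat1 the highest. Atf4 knockout libraries went from 103, 104 and 89.2 to 287, 243 and 301 CPM, and Cebpg knockout libraries from 62.5, 57.3 and 67.0 to 192, 198 and 238 CPM. The log2 fold changes were 1.64 ± 0.12 in Rosa26 (1.52 without the 3 libraries low in Malat1), 1.49 ± 0.12 in Atf4 knockout and 1.75 ± 0.12 in Cebpg knockout cells.

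Of the receptors, S1pr1 changed most. It rose from 39.3, 37.5 and 33.2 CPM to 135, 196 and 158 CPM in Rosa26 libraries, from 69.9, 74.9 and 70.1 to 336, 319 and 401 CPM in Atf4 knockout libraries, and from 45.8, 44.3 and 43.9 to 247, 247 and 277 CPM in Cebpg knockout libraries. The lowest treated library of any genotype was thus above the highest untreated library of all of them. Fold changes from the fit were 4.43, 4.91 and 5.74. In log2 they were 2.15 ± 0.12 (adjusted p = 3.39e-11), 2.30 ± 0.11 (adjusted p = 7.07e-12) and 2.52 ± 0.12 (adjusted p = 2.46e-12).

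Ccr7, the chemokine receptor for entry into lymph nodes, was at 139, 125 and 134 CPM in untreated and 282, 368 and 310.1 CPM in treated Rosa26 libraries. In Atf4 knockout cells it went from 242, 238 and 226 to 418, 381 and 538 CPM, and in Cebpg knockout cells from 177, 179 and 178 to 351, 341 and 395 CPM. All treated libraries were higher than the untreated ones of their genotype. The log2 fold change was 1.27 ± 0.11 in Rosa26, 0.92 ± 0.11 in Atf4 knockout and 1.03 ± 0.11 in Cebpg knockout cells, and the third treated Atf4 knockout library, low in Malat1, was the highest of the 18.

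Il7r, the receptor chain for interleukin 7, and Slamf6, a receptor of the SLAM family found on stem-like CD8 T cells, had smaller changes than the other 2 receptors. Il7r levels were 20.4, 21.4 and 24.0 CPM in untreated and 35.6, 37.2 and 35.5 CPM in treated Rosa26 libraries, 38.8, 39.2 and 42.8 CPM without and 54.8, 60.9 and 56.4 CPM with the drug in Atf4 knockout libraries, and 26.4, 30.1 and 27.1 CPM without and 54.5, 49.96 and 51.0 CPM with the drug in Cebpg knockout libraries. Slamf6 levels were 15.5, 16.4 and 17.3 CPM without and 25.2, 27.8 and 26.8 CPM with the drug in Rosa26, 32.1, 28.0 and 32.5 CPM without and 46.9, 42.1 and 39.9 CPM with the drug in Atf4 knockout and 24.0, 25.7 and 25.9 CPM without and 37.2, 37.3 and 31.1 CPM with the drug in Cebpg knockout libraries. Neither gene had a treated library within the untreated range of its genotype. In the order Rosa26, Atf4 knockout and Cebpg knockout, the log2 fold changes of Il7r were 0.72 ± 0.078, 0.51 ± 0.074 and 0.89 ± 0.076, and those of Slamf6 were 0.70 ± 0.093, 0.48 ± 0.088 and 0.48 ± 0.090. For the 8 genes together, 7, 8 and 8 did not overlap between treatments in the 3 genotypes, as did 27.2%, 25.4% and 28.0% of all genes on the higher side. These counts of calls were the same without the 3 libraries low in Malat1, and each held when any 1 of the 18 libraries was left out.

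**Figure D2:**
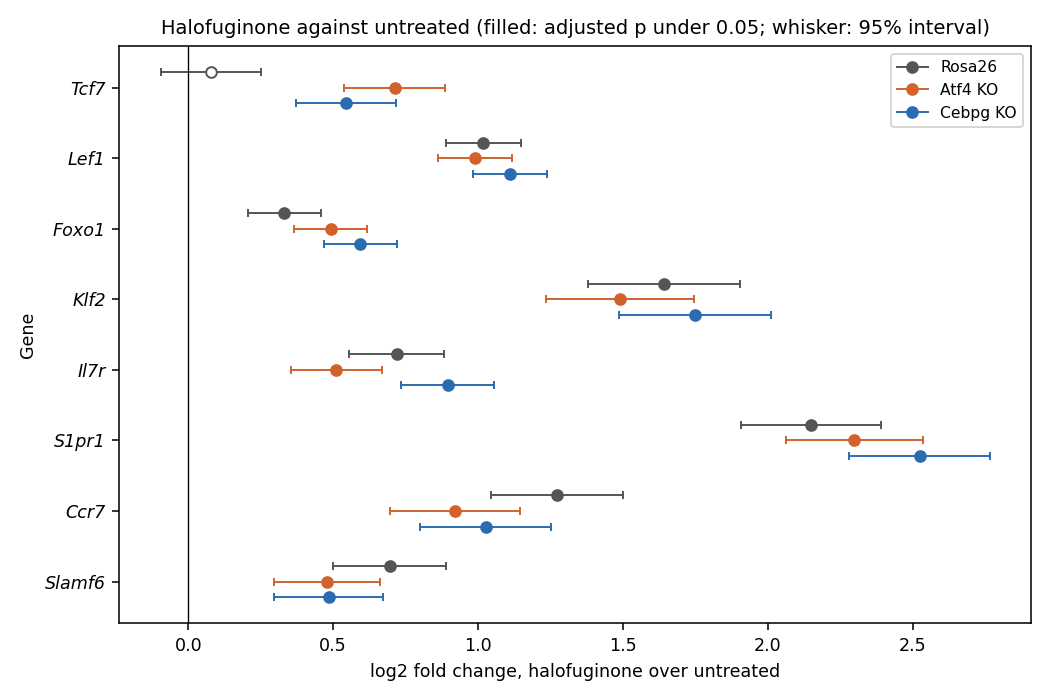
Log2 fold change of halofuginone over untreated (horizontal axis) for the 8 genes in the 3 genotypes, with 95% intervals from the 18-library fit; filled points passed an adjusted p under 0.05. Tcf7 in Rosa26 cells, at 0.08, is the only open point, and S1pr1 has the largest values, from 2.15 to 2.52.

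Without the drug, Atf4 knockout cells already had more of 7 of the 8 mRNAs than Rosa26 cells, beside 11.7% of all genes that were higher. S1pr1, Slamf6, Il7r, Klf2 and Ccr7 were each 1.77-fold to 1.95-fold higher by the fit, Lef1 was 1.43-fold higher and Foxo1 1.15-fold higher. Tcf7 was at nearly the same mean, 377 ± 12.0 CPM in Rosa26 and 382 ± 8.98 CPM in Atf4 knockout cells. Over all genes, 44.9% of the calls were on the higher side, a share that became 57.6% with upper-quartile scaling; the count of 7 genes held under TMM, RLE and upper-quartile scaling.

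The log2 differences between untreated Atf4 knockout and Rosa26 cells were 0.97 ± 0.12 for S1pr1 (adjusted p = 1.06e-05), 0.91 ± 0.093 for Slamf6 (adjusted p = 1.39e-06), 0.88 ± 0.078 for Il7r (adjusted p = 2.94e-07) and 0.87 ± 0.12 for Klf2 (adjusted p = 7.57e-05). They were 0.83 ± 0.11 for Ccr7 and 0.52 ± 0.061 for Lef1. For these 6 genes and for Foxo1 the Atf4 knockout libraries lay above all Rosa26 libraries, as for 24.2% of all genes. Foxo1 had a small difference, 0.20 ± 0.060 (adjusted p = 0.0176), and it no longer passed without Atf4 knockout untreated replicate 2 (adjusted p = 0.0755), Cebpg knockout halofuginone replicate 2 (0.0562) or Rosa26 untreated replicate 1 (0.0536). Tcf7 overlapped, with 0.02 ± 0.082 and a 95% interval of -0.15 to 0.19; its sign turned to -0.01 with RLE scaling.

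Without drug, Cebpg knockout cells had mean levels between those of the other 2 genotypes for 6 of the 8 genes. Only Slamf6, Ccr7 and Il7r passed the test against Rosa26, 3 of 8 beside 2.71% of all genes on the higher side. Of all calls in this comparison 54.2% were on the higher side, and 26.2% with RLE scaling, under which the count of 3 was the same. Slamf6 was 0.62 ± 0.094 higher in log2 (adjusted p = 0.00133), and its call held whichever library was left out. Ccr7, with 0.42 ± 0.11 (adjusted p = 0.0311), lost its call in 6 of the 18 fits with 1 library left out, each of them 1 of the 6 compared libraries (adjusted p = 0.0671 to 0.124). Il7r, with 0.35 ± 0.080 (adjusted p = 0.0172), lost it without Cebpg knockout untreated replicate 2 (0.103) or Rosa26 untreated replicate 1 (0.0867) or 2 (0.0736).

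The other 5 genes did not pass in untreated Cebpg knockout cells. Lef1 had 0.20 ± 0.061 (adjusted p = 0.0581) and S1pr1 0.28 ± 0.12 (adjusted p = 0.153), both with libraries above all of Rosa26, so that 5 of 8 genes were apart on the higher side, as were 19.3% of all genes. These 2 passed without the 3 libraries low in Malat1, at adjusted p of 0.00133 and 0.000707, which makes 5 of 8. Those 3 are treated libraries outside this comparison, and the log2 values without them were nearly the same, 0.20 and 0.29. With the compared groups alone Lef1 and S1pr1 passed, and Klf2 too (0.21, adjusted p = 0.0212), which makes 6 of 8. Lef1 also passed with upper-quartile scaling (adjusted p = 0.0257), the filter at 50 counts (0.0314), DESeq2 (0.0472) and voom (0.00497). S1pr1 also passed with upper-quartile scaling (0.0363) and voom (0.0213). RLE scaling left the count at 3. Klf2, at 0.20 ± 0.13, and Foxo1, at -0.03 ± 0.061, overlapped; Foxo1 turned to 0.02 with upper-quartile scaling. Tcf7 was -0.10 ± 0.082, with an interval of -0.27 to 0.07, and its 3 Cebpg knockout libraries lay below the 3 of Rosa26, as for 20.6% of all genes.

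Set directly against untreated Atf4 knockout cells, Cebpg knockout cells had less of 6 of the 8 mRNAs, beside 1.31% of all genes on the lower side. S1pr1 differed by -0.68 ± 0.11, Klf2 by -0.67 ± 0.12, Il7r by -0.53 ± 0.077 and Lef1 by -0.32 ± 0.061 in log2 (adjusted p = 0.00307, 0.00655, 0.000803 and 0.00666), and these 4 calls held whichever library was left out. Foxo1 (-0.23 ± 0.061, adjusted p = 0.0370) and Ccr7 (-0.40 ± 0.11, adjusted p = 0.0459) were near the threshold and lost their calls in 8 and 12 of the 18 such fits, with adjusted p up to 0.158 and 0.151. Both were lost without any 1 of the 6 compared libraries or without Rosa26 untreated replicate 1 or 3, and Ccr7 also without Rosa26 untreated replicate 2, or replicate 3 of the treated Rosa26 cells, or replicate 1 of either treated knockout. Slamf6 (-0.29 ± 0.090, adjusted p = 0.0871) and Tcf7 (-0.12 ± 0.083, adjusted p = 0.571) did not pass, with intervals of -0.48 to -0.10 and -0.29 to 0.05. Both passed without the 3 libraries low in Malat1 (adjusted p = 0.00685 and 0.0465), which are outside this comparison. Their log2 values were then nearly the same, -0.30 and -0.13. The libraries of the 2 knockouts were apart for 8 of 8 genes, as for 12.1% of all genes on the lower side.

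With halofuginone in all groups, 8 of 8 genes were higher in Atf4 knockout than in Rosa26 cells, beside 11.8% of all genes on the higher side. By the fit S1pr1 was 2.17-fold and Klf2 1.64-fold higher, Slamf6 1.62-fold and Il7r 1.59-fold. Tcf7, which did not differ beyond its spread without the drug, was 1.57-fold higher. The 8 calls held in each fit with 1 library left out and without the 3 libraries low in Malat1. The share of calls on the higher side over all genes was 41.9%, and 52.2% with upper-quartile scaling.

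The log2 differences between treated Atf4 knockout and Rosa26 cells were 1.12 ± 0.11 for S1pr1, 0.71 ± 0.12 for Klf2, 0.69 ± 0.088 for Slamf6 and 0.67 ± 0.075 for Il7r. For the others they were 0.66 ± 0.083 for Tcf7 (adjusted p = 5.24e-06), 0.49 ± 0.060 for Lef1 (adjusted p = 3.76e-06), 0.36 ± 0.060 for Foxo1 (adjusted p = 0.000111) and 0.48 ± 0.11 for Ccr7 (adjusted p = 0.00203). The libraries of the 2 groups did not overlap for any of the 8 genes, as for 15.6% of all genes on the higher side. For Ccr7 the margin was narrow, since the lowest Atf4 knockout library had 381 CPM and the highest Rosa26 library, the one low in Malat1, had 368 CPM.

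Treated Cebpg knockout cells had more of 6 of the 8 mRNAs than treated Rosa26 cells, beside 5.74% of all genes on the higher side. The 6 were S1pr1 (0.66 ± 0.11), Il7r (0.52 ± 0.075), Slamf6 (0.41 ± 0.089), Tcf7 (0.37 ± 0.082), Lef1 (0.29 ± 0.060) and Foxo1 (0.23 ± 0.060), in log2. Foxo1 lost its call without Rosa26 halofuginone replicate 1 (adjusted p = 0.0624). The libraries of these 6 were apart, as were those of 13.1% of all genes on the higher side, and Klf2 and Ccr7 overlapped, at 0.31 ± 0.12 (adjusted p = 0.0808) and 0.18 ± 0.11 (adjusted p = 0.263). Both passed without the 3 libraries low in Malat1, Klf2 with 0.36 (adjusted p = 0.0111) and Ccr7 with 0.22 (adjusted p = 0.00149), and also without Rosa26 halofuginone replicate 2 alone (0.00325 and 0.0303) or Atf4 knockout halofuginone replicate 3 alone (0.0385 and 0.0203). Of all calls here 30.4% were on the higher side, and 50.7% with upper-quartile scaling, under which 8 of the 8 genes passed.

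Between the treated knockouts the difference was smaller and depended on the fit. Every one of the 8 genes had a negative log2 value for Cebpg knockout against Atf4 knockout cells, from -0.13 ± 0.060 for Foxo1 to -0.46 ± 0.11 for S1pr1. S1pr1 alone passed (adjusted p = 0.0452), beside 0.463% of all genes on the lower side, and it did not pass with the replicate number as a block (adjusted p = 0.0797; 90 genes in all passed, against 147 without the block), nor in 13 of the 18 fits with 1 library left out, with adjusted p of at most 0.196. The 5 libraries without which it still passed were the treated Atf4 knockout replicates 2 and 3, Cebpg knockout replicate 3 and Rosa26 replicates 1 and 2. Without the 3 libraries low in Malat1, 6 of 8 genes passed, the exceptions being Il7r (-0.15, adjusted p = 0.367) and Slamf6 (-0.27, adjusted p = 0.08). DESeq2 called 4 of the 8, beside 501 of all genes in either direction. The libraries overlapped for Foxo1 and Ccr7 and were apart for the other 6, as for 8.25% of all genes on the lower side. The knockout comparisons share control libraries with each other, so they are set side by side here and not related to one another.

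**Figure D3:**
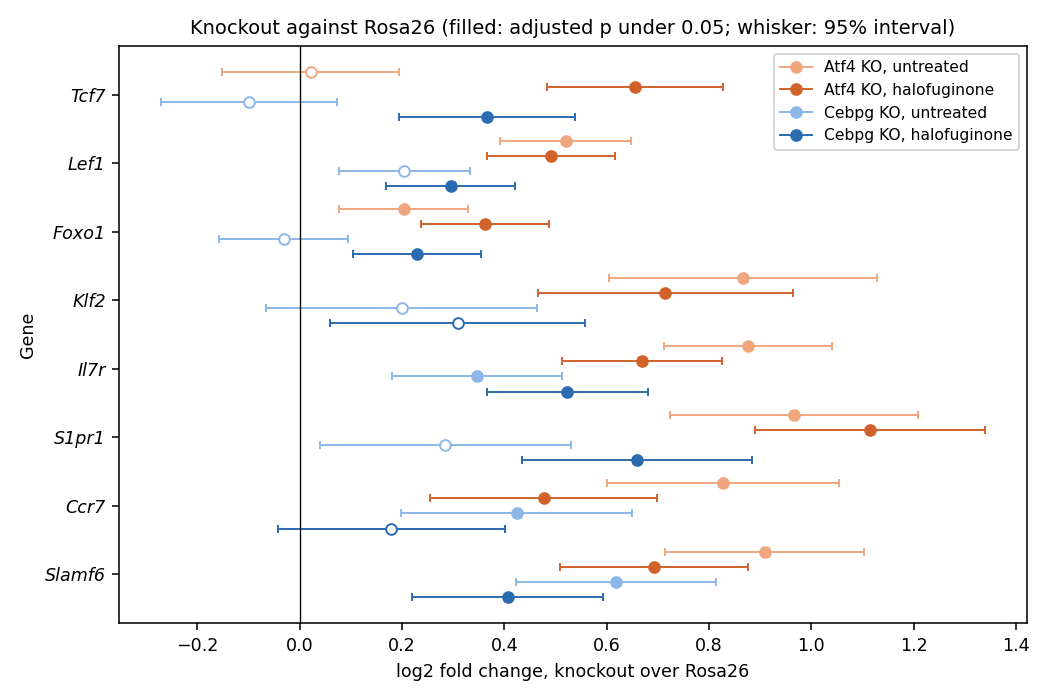
Log2 fold change of each knockout over Rosa26 (horizontal axis) for the 8 genes, without the drug (pale) and with it (dark), with 95% intervals from the 18-library fit; filled points passed an adjusted p under 0.05. The Atf4 knockout values lie to the right of the Cebpg knockout values of the same treatment for every gene, and Tcf7 lies near 0 in the untreated cells of both.

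In order of mean level, untreated Rosa26 cells were the lowest group and treated Atf4 knockout cells the highest for 6 of the 8 genes; for Tcf7 and Foxo1 untreated Cebpg knockout cells were the lowest, and treated Atf4 knockout cells still the highest. Lef1 and S1pr1 had the same order of 6 groups with no neighbours overlapping: untreated Rosa26, Cebpg knockout and Atf4 knockout cells, then treated cells of the genotypes in the same order. Ccr7 and Klf2 followed this order too, but the treated Rosa26 and Cebpg knockout libraries overlapped for both, as did the 2 treated knockouts for Ccr7 and the untreated Rosa26 and Cebpg knockout cells for Klf2. Il7r and Slamf6 differed, since their mean was higher in untreated Atf4 knockout than in treated Rosa26 cells, at 40.3 ± 2.20 against 36.1 ± 0.957 CPM for Il7r and 30.9 ± 2.49 against 26.6 ± 1.33 CPM for Slamf6. For Il7r no neighbours overlapped; Slamf6 overlapped between untreated Cebpg knockout and treated Rosa26 cells and between untreated Atf4 knockout and treated Cebpg knockout cells. Neighbours also overlapped for Tcf7 among untreated Rosa26, untreated Atf4 knockout and treated Rosa26 cells. For Foxo1 they overlapped between the untreated Cebpg knockout and Rosa26 cells, between untreated Atf4 knockout and treated Rosa26 cells, and between the treated knockouts.

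The interaction terms ask whether the response to halofuginone differed between genotypes. Tcf7 was the only one of the 8 genes to pass against Rosa26 in either knockout. Its response was 0.63 ± 0.12 larger in Atf4 knockout cells on the log2 scale (95% interval 0.39 to 0.88, adjusted p = 0.00230), a call beside 2.41% of all genes with a larger response. In Cebpg knockout cells the difference was 0.47 ± 0.12 (interval 0.22 to 0.71, adjusted p = 0.0378), beside 0.374% of all genes. The replicate block ended this second call (adjusted p = 0.0655). The first call held in each of the 18 fits with 1 library left out and grew to 0.67 without the 3 libraries low in Malat1. The second was also lost in 13 of the 18, with adjusted p of at most 0.101; it held without any 1 of the treated Atf4 knockout libraries, without treated Cebpg knockout replicate 2 and without treated Rosa26 replicate 2. Without the 3 libraries low in Malat1 together it was 0.51 (adjusted p = 1.25e-06). Of all calls, 37.5% were larger responses in Atf4 knockout cells and 59.1% with RLE scaling; for Cebpg knockout cells the shares were 15.2% and 40.7%.

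For the other 7 genes the 95% intervals give the range these libraries allow. Lef1 responses differed by -0.03 ± 0.085 in Atf4 knockout (-0.21 to 0.15) and 0.09 ± 0.086 in Cebpg knockout cells (-0.09 to 0.27). Klf2 had wider intervals, -0.51 to 0.21 and -0.26 to 0.47. Il7r gave -0.21 ± 0.11 in Atf4 knockout and 0.18 ± 0.11 in Cebpg knockout cells, and Slamf6 -0.22 ± 0.13 and -0.21 ± 0.13. Ccr7 gave -0.35 ± 0.15 (adjusted p = 0.195) and -0.24 ± 0.15 (adjusted p = 0.545), S1pr1 0.15 ± 0.16 (adjusted p = 0.666) and 0.37 ± 0.16 (adjusted p = 0.288), and Foxo1 0.16 ± 0.085 (adjusted p = 0.314) and 0.26 ± 0.085 (adjusted p = 0.131).

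Some of these passed under other settings. Foxo1 in Cebpg knockout cells passed with RLE scaling (adjusted p = 0.0403), the filter at 50 counts (0.0314), the compared groups alone (0.0228), DESeq2 (0.00815) and voom (0.0131), and S1pr1 there with DESeq2 (0.0496) and voom (0.00945). In Atf4 knockout cells Ccr7 passed with upper-quartile scaling (0.0478) and voom (0.00862), and Foxo1 with voom (0.0129). Without the 3 libraries low in Malat1, 3 of 8 genes passed in Atf4 knockout cells, Tcf7, Foxo1 with 0.25 (adjusted p = 0.0148) and Ccr7 with -0.40 (adjusted p = 6.33e-05), and 3 in Cebpg knockout cells, Tcf7, Foxo1 with 0.28 (adjusted p = 0.0118) and S1pr1 with 0.47 (adjusted p = 0.000323). Leaving out Atf4 knockout halofuginone replicate 3 alone was enough for Foxo1 (0.0233) and Ccr7 (0.00615) in the first comparison and for Foxo1 (0.00958) in the second, and Rosa26 halofuginone replicate 2 alone was enough for Foxo1 (0.0346) and S1pr1 (0.00633) in the second. Between the 2 knockouts 0 of 8 responses differed by edgeR's test or by DESeq2, beside 0.0136% of all genes in either direction, and limma voom with sample weights called 1. The largest of the 8 differences was that of Il7r, at 0.38 ± 0.11 (adjusted p = 0.369). Both calls among all genes split evenly by direction, and 81.8% of 11 calls were larger responses in Cebpg knockout cells with upper-quartile scaling.

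**Figure D4:**
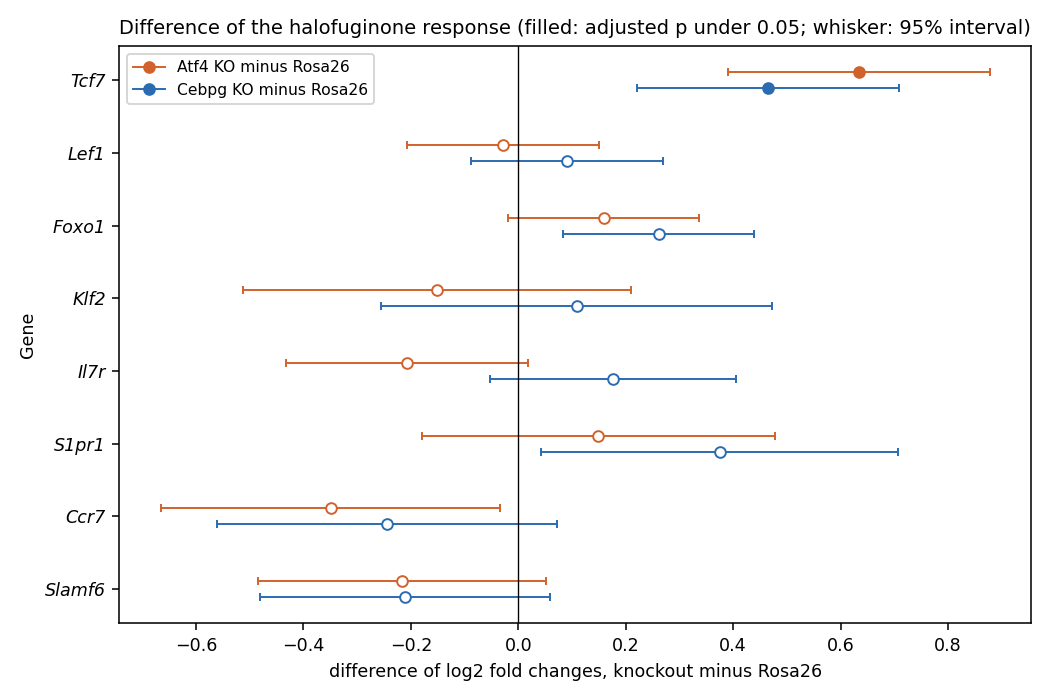
Difference of the halofuginone response, knockout minus Rosa26, in log2 (horizontal axis) for the 8 genes, with 95% intervals from the 18-library fit; filled points passed an adjusted p under 0.05. The 2 filled points belong to Tcf7, at 0.63 and 0.47, and all other points are open.

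The 8 genes did not share 1 pattern. Over the 5 log2 ratios of each gene to untreated Rosa26 cells, the closest pairs were Il7r and Slamf6, with a root mean square difference of 0.138, and Tcf7 and Foxo1, with 0.153, and the farthest were Tcf7 and S1pr1, with 1.86. Among all other named genes with a mean of at least 5 CPM, the nearest to S1pr1 were Txnip (0.0883), which FOXO factors and glucose both regulate, Rgs1 (0.122), a regulator of G protein signalling, and Lypd6b (0.128). The nearest to Klf2 were Tnfsf8 (0.0975), Mxd4 (0.109), a member of the MAX network, and Pde8a (0.122), and to Ccr7 they were Zbtb4 (0.0638), Dgka (0.0652), a brake on diacylglycerol signalling, and Akap9 (0.0877). Igf1r, the receptor of insulin-like growth factor, was among the 3 nearest to both Il7r (0.129) and Slamf6 (0.132). The remaining nearest genes were Ripor2 (0.128) and Ccdc171 (0.132) for Il7r, Cyp4f13 (0.114) and Cdc14b (0.157) for Slamf6, Rb1cc1 (0.0178), Ap3m2 (0.0301) and Phf21a (0.0409) for Lef1, Dcp1b (0.0248), Iba57 (0.0325) and Cop1 (0.0344) for Foxo1, and Tyw5 (0.0647), Cir1 (0.0692) and Gpsm3 (0.0773) for Tcf7. Each of these distances is over 5 ratios that share the untreated Rosa26 libraries.

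Partners of each gene were read from lists of its pathway. With halofuginone in Rosa26 cells, 23.6% of all genes were higher and 24.1% lower, and each count below stands beside these shares as a description, with no test of the list. Of 19 measured partners of TCF1 and LEF1, 7 rose and 5 fell, with a median log2 change of 0.06. Tle3, a co-repressor, rose by 0.70 ± 0.052 and Tcf7l1, a paralog at 0.779 to 1.48 mean CPM, fell by 0.94 ± 0.37 on the log2 scale. Of 19 genes of the FOXO pathway 8 rose and 8 fell, median 0.08. In Atf4 knockout cells the drug gave 11 higher and 4 lower (median 0.31), beside 23.1% and 26.5% of all genes, and in Cebpg knockout cells 9 higher and 4 lower (median 0.07), beside 23.1% and 28.0%. Fbxo32, an established FOXO target, rose by 2.41 ± 0.10, from 5.59 to 29.8 mean CPM. Akt1, the kinase that restrains FOXO proteins, fell by 0.95 ± 0.071, from 392 to 203 mean CPM. Of the other FOXO genes, Foxo3 rose by 0.41 ± 0.062, and Foxo4 fell by 0.79 ± 0.12. In untreated Atf4 knockout cells against Rosa26 the FOXO list had 6 higher and 5 lower, beside 11.7% and 14.3% of all genes, with Fbxo32 higher by 0.87 ± 0.11 and Akt1 lower, at -0.50 ± 0.070.

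On a list of 10 KLF genes other than Klf2, all 8 that were measured passed the test of halofuginone in Rosa26 cells. Of them 6 were higher and 2 lower, beside 23.6% and 24.1% of all genes. Klf3 rose by 1.44 ± 0.080 and Klf6 by 0.24 ± 0.058, and Klf16 fell by 0.49 ± 0.10 on the log2 scale. Klf3 was also higher in untreated Atf4 knockout cells, by 0.98 ± 0.081, and in untreated Cebpg knockout cells, by 0.42 ± 0.082. Of 9 measured genes on the SLAM family list 4 rose and 4 fell, with Slamf1 up by 0.80 ± 0.084 and Cd244a, at 0.802 to 2.52 mean CPM, at -1.67 ± 0.41.

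On the IL-7 receptor list 12 of 18 genes rose and 3 fell with the drug in Rosa26 cells, with a median of 0.43. Socs3, a feedback inhibitor of cytokine receptors, rose by 1.19 ± 0.093 and Il2rg, which encodes the chain that pairs with the product of Il7r, by 0.46 ± 0.087, whereas Jak3, the kinase bound to that chain, fell by 0.36 ± 0.078. In Atf4 knockout cells the drug gave 12 higher and 2 lower on this list, beside 23.1% and 26.5% of all genes. In Cebpg knockout cells it gave 11 higher and 2 lower, beside 23.1% and 28.0%. Il2rg did not pass in Atf4 knockout cells, at -0.01 ± 0.087, or in Cebpg knockout cells, at 0.17 ± 0.087. Among 18 genes of egress, homing and adhesion 9 rose and 5 fell, median 0.33. S1pr4, another receptor for sphingosine 1-phosphate, rose by 0.46 ± 0.11 and Gpr18 by 1.45 ± 0.092. Gpr183, a receptor for oxysterols, fell by 0.85 ± 0.20.

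Other genes of the naive and memory states were set beside effector genes. With halofuginone in Rosa26 cells 12 of 19 measured naive and memory genes were higher and 5 lower (median 0.35), and of 18 effector genes 7 were higher and 3 lower (median 0.06). The effector list had 6 higher and 5 lower in Atf4 knockout cells (median -0.03) and 6 higher and 6 lower in Cebpg knockout cells (median -0.25). The naive and memory list had 10 higher and 5 lower (median 0.53) and 11 higher and 5 lower (median 0.57). Beside these stand 23.1% of all genes higher in each knockout, and 26.5% lower in Atf4 knockout and 28.0% in Cebpg knockout cells. Bach2, a repressor that holds back effector differentiation, rose by 1.87 ± 0.083, from 39.5 to 144 mean CPM, and Dapl1 fell by 1.68 ± 0.14. Fasl, a death ligand of effector cells, rose by 1.59 ± 0.19, from 3.42 to 10.3 mean CPM, and Batf fell by 0.84 ± 0.11. In untreated Atf4 knockout against Rosa26 cells the naive and memory list had 10 higher and 2 lower (median 0.23), and the effector list 3 higher and 6 lower (median -0.33), beside 11.7% of all genes higher and 14.3% lower. In untreated Cebpg knockout cells the 2 lists had 4 higher and 2 lower, and 1 higher and 1 lower, beside 2.71% and 2.29% of all genes.

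**Figure D5:**
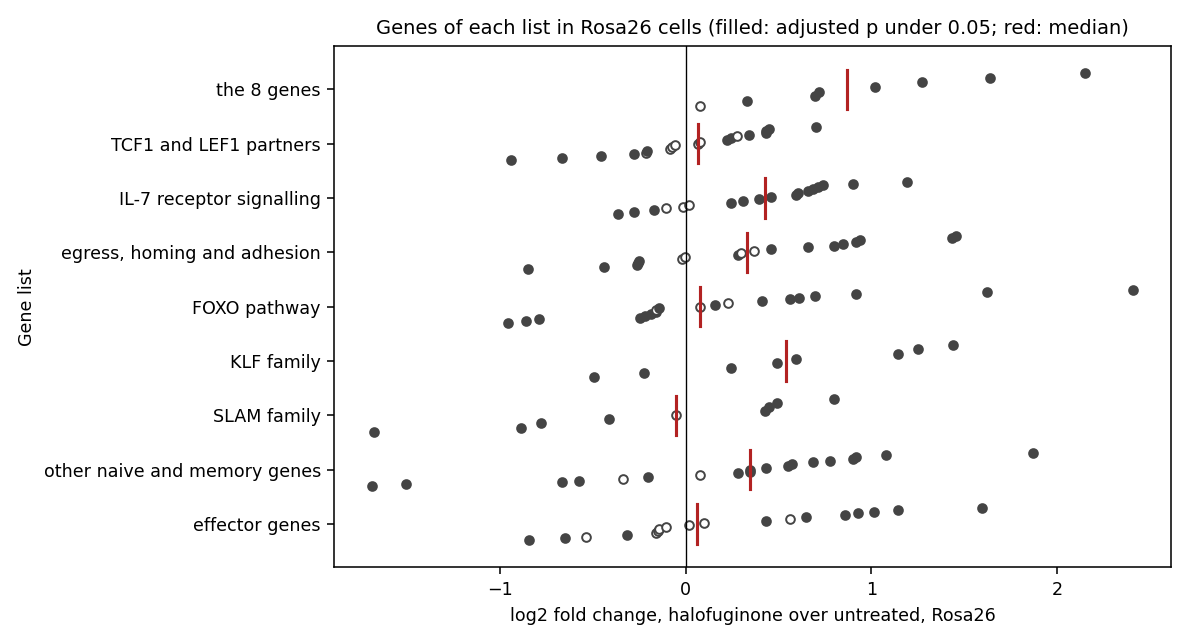
Log2 fold change of halofuginone over untreated in Rosa26 cells (horizontal axis) for the 8 genes and the measured genes of each pathway list (rows; points within a row are spread vertically in order of value); filled points passed an adjusted p under 0.05 and red bars are medians. The median of the 8 genes is 0.87 and the list medians lie between -0.05 and 0.54.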

How the data were processed

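Poly-A RNA from mouse CD8+ T cells was sequenced in 18 libraries, 3 for each of the 6 groups that the labels give, as directional (dUTP) libraries, per the labels' protocols. The submitters' processing notes name the build GRCm39 and the tools FastQC, MultiQC, Trimmomatic, STAR, HTSeq and edgeR, with no versions, and the sources used here do not give the strand setting. Raw counts per gene, with no normalization, were deposited for 14695 genes and sum to 14190361 to 20281602 per library. Counts of the 8 genes were at least 258, and in some groups their counting error is as large as the spread between libraries.

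The counts were scaled with TMM and fitted with edgeR 4.0.16 (R 4.3.3), a robust quasi-likelihood model over the 6 groups and all 18 libraries, with Benjamini-Hochberg adjustment over all genes; a filter at 10 counts (filterByExpr) left out no gene. Adjusted p-values below 0.05 were called, and interaction terms came from the same fit. Standard errors are the fold change divided by the square root of the test statistic. CPM use TMM-scaled library sizes, and RPKM the union exon lengths of the GENCODE M21 annotation (GRCm38), whose coordinates were not mixed with the GRCm39 counts; 431 of 449 blank gene names were filled from it by identifier. Alternatives were RLE and upper-quartile scaling, a filter at 50 counts, no filter, fits of the compared groups alone, a replicate block, DESeq2 1.42.0, limma 3.58.1 voom with sample weights, each library left out, and the 3 treated libraries low in Malat1 left out. The labels number the replicates 1 to 3 in each group without saying that a number marks a shared mouse or day. Deviations of same-numbered libraries correlated above 0.1 in all 3 pairs for 1 of 15 pairs of groups. These were the treated Atf4 and Cebpg knockouts (0.412, 0.197 and 0.661). In both of them replicate 3 was the library low in Malat1. Treated Rosa26 and treated Atf4 knockout libraries gave 0.430, -0.781 and -0.714. Whether a replicate number marks a pairing was not tested.

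The 8 genes, the lists of partner genes and of cell type markers, and the searched words were chosen with earlier results of these data known. The genes named from each list are those with the highest and the lowest change with halofuginone in Rosa26 cells among those past the threshold, and those paired by name with 1 of the 8. Of these, 1 gene is not reported here. Likeness between genes was the root mean square difference of 5 group ratios, among genes with a mean of at least 5 CPM and no predicted name.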

Additional observations from a re-analysis of the deposited data

Results flagged for a closer look

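The response of Tcf7 to halofuginone differed between genotypes by the interaction test. It was 0.633783 larger on the log2 scale in Atf4 knockout than in Rosa26 cells and 0.465128 larger in Cebpg knockout than in Rosa26 cells, with adjusted p of 0.0023 and 0.0378 by edgeR. In both knockouts the 3 treated libraries lay above the 3 untreated ones, and in Rosa26 cells they overlapped. The 2 differences share the Rosa26 libraries. The Atf4 call held in each of 18 fits with 1 library left out, whereas the Cebpg call was lost in 13 of them and with the replicate block (adjusted p = 0.0655).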

How the results depend on the processing

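Over the 8 genes and 12 comparisons, 2422 of 2592 values from 27 alternative settings kept direction and side of the threshold. Of the rest, 78 passed newly, 63 no longer passed and 29 changed sign, all of these 29 without a call. The setting with no filter repeats the main fit, since the filter at 10 counts left out no gene. Its 96 unchanged values were thus fixed in advance. The counts of 7, 8 and 8 genes raised by halofuginone changed in no setting except upper-quartile scaling, which added Tcf7 in Rosa26 cells. The cause of the changes below was not tested.

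For Cebpg knockout against Rosa26 untreated (3 of the 8 genes, 735 of all), upper-quartile scaling gave 5 of the 8, the compared groups alone 6 and 4044 of all, voom 5 and 3768, leaving out the 3 libraries low in Malat1 5 and 3932, RLE 1536 of all, the filter at 50 counts 1456 and DESeq2 2020. For the treated knockouts against each other (1, 147) these were RLE 2 and 223, upper-quartile 3 and 291, filter 3 and 327, groups alone 0 and 1, DESeq2 4 and 501, voom 7 and 1313, and without the 3 libraries 6 and 724. For the Atf4 interaction (1, 943) they were upper-quartile 2, voom 3 and 2833, without the 3 libraries 3 and 2192, groups alone 607 and DESeq2 1508. For the Cebpg interaction (1, 363) they were RLE 2, filter 2, groups alone 2, DESeq2 3 and 648, voom 3 and 1104, and without the 3 libraries 3 and 1053. Between the knockouts' responses (0, 2) voom gave 1 and 118, upper-quartile 11 of all, filter 8, DESeq2 53 and without the 3 libraries 61. Of all genes, Atf4 knockout against Rosa26 untreated (3827) had 5997 with the groups alone, 5883 with voom and 6164 without the 3 libraries; Cebpg against Atf4 knockout untreated (488) had 783, 1723, 915, 1955 and 1739 with the filter, groups alone, DESeq2, voom and without the 3 libraries; and Atf4 knockout against Rosa26 with drug (4128) had 2500 with the groups alone.

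With the replicate block the treated knockouts had 0 of the 8 genes and 90 of all, Ccr7 was lost between the untreated knockouts (adjusted p = 0.0630; 5 genes in place of 6) and Tcf7 in the Cebpg interaction (0.0655; 0 in place of 1); the block changed no other call of the 8 genes.

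Values near 0 that changed sign were Tcf7 in Atf4 knockout against Rosa26 untreated (RLE -0.00638, DESeq2 -0.00636), Tcf7 with drug in Rosa26 (voom -0.000296), Foxo1 in Cebpg knockout against Rosa26 untreated (upper-quartile 0.0184), Slamf6 between the knockouts' responses (voom -0.0844) and Lef1 in the Atf4 interaction (RLE 0.0247, filter 0.0045, DESeq2 0.0250, voom 0.0748, without the 3 libraries 0.0402). With each library left out, those values ran from -0.0219 to 0.0502, -0.0308 to 0.127, -0.0664 to 0.00821, -0.0580 to 0.0823 and -0.0748 to 0.0801, and Klf2 in the Atf4 interaction from -0.236 to 0.0275.

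With each library left out, members called and all genes called ran from 7 to 7 and 6148 to 7727 (drug, Rosa26), 8 to 8 and 6545 to 7625 (Atf4 knockout), 8 to 8 and 6726 to 8095 (Cebpg knockout), 6 to 7 and 2756 to 5082 (Atf4 knockout against Rosa26 untreated), 1 to 4 and 203 to 2639 (Cebpg knockout), 4 to 7 and 160 to 1082 (Cebpg against Atf4 knockout), 8 to 8 and 3302 to 5265, 5 to 8 and 1775 to 3677, and 0 to 3 and 22 to 404 (the same 3 with drug), 1 to 3 and 650 to 1477 (Atf4 interaction), 0 to 3 and 210 to 679 (Cebpg interaction), and 0 to 0 and 1 to 11 (between knockouts).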
